A study of Mus musculus with 8 samples.

Results

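The genes described here are 10 brain A-kinase anchoring protein genes: Akap11, Sphkap, Akap1, Akap5, Akap6, Akap7, Akap8l, Akap9, Akap12 and Akap13. They were chosen by symbol, with earlier results of these data known, and all 10 were found among the 57186 genes listed in each file. The data are 8 RNA-seq libraries of total RNA from mouse brain: 4 controls and 4 from mice with a conditional knockout of AKAP11 (cKO). The labels give no allele, recombinase or driver, deleted exon, strain, age, brain region or treatment for either group, so what the controls carry is not known here. Nor do they say that each library is 1 mouse, so the p-values rest on a spread between libraries that may be technical. The study asks what the loss of AKAP11, tied in its title to bipolar and schizophrenia risk, does in the brain. Here the question is how the anchors rank by RNA level, and whether any other anchor is higher where Akap11 is lower.

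A-kinase anchoring proteins hold protein kinase A (PKA) at a place in the cell. A short amphipathic helix of the anchor grips the paired regulatory subunits of the kinase, and other parts of the anchor bind phosphatases, phosphodiesterases, further kinases or the substrate itself. Neurons use many anchors at once, at synapses, the Golgi apparatus, mitochondria, the nuclear envelope and the contacts of the endoplasmic reticulum. AKAP11 binds PKA regulatory subunits, GSK3 and protein phosphatase 1, and carries bound cargo to autophagosomes. SPHKAP is a related neuronal anchor that prefers type I PKA.

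The 8 libraries held 13841218 to 19991942 reads in genes, and every member was well covered, from 405 reads (Akap7) to 6274 reads (Akap6) in single libraries. A pair of libraries, control replicate 1 and cKO replicate 1, stood apart from the rest. Of the reads of cKO replicate 1, 63.8% fell in genes, against at least 73.7% elsewhere. It lay at 39.1 on the first principal component, and control replicate 1 lay at 31.0 on the second. Summed pan-neuronal markers (10 genes, all tested) ran from 8056 to 8652 CPM in control and from 7655 to 8164 CPM in cKO libraries. CPM is the read count scaled to a common library size, with TMM factors. Thalamic markers (5 genes) summed to 252 to 286 CPM in control and 228 to 242 CPM in cKO libraries, without overlap. Among single genes, 1.39% of all tested were separated towards lower values. All 5 thalamic markers had negative fold changes, none of them called. At an unadjusted edgeR p under 0.05, 2 of the 5 were lower, as were 1.91% of all genes tested. Of 9 astrocyte markers, Aqp4, encoding a water channel, was higher (log2 fold change 0.46, edgeR adjusted p 0.0104), and 1 more was higher and 1 lower at an unadjusted p under 0.05. All 6 choroid plexus markers and all 5 markers of oligodendrocyte precursors had negative fold changes, none of them called, and their summed levels overlapped between the groups. The part of these cell types in the results below was not tested. Red blood cell markers stayed at or under 28.6 CPM in sum. The 7 cerebellar markers summed to 224 to 274 CPM in control and 204 to 235 CPM in cKO libraries. Among them, Cbln3 and Gabra6, known from cerebellar granule cells, were highest in control replicate 2, at 13.2 and 4.52 CPM, against at most 3.91 and 0.924 CPM elsewhere.

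The sequences shown first are the 250 bases before the start of Akap11, whose RNA level passed the test, and of Sphkap, its relative, whose level did not. They are from RefSeq, build GRCm38.p6, which is not the build of the counts (GRCm39). The RefSeq table held 13 such windows for 9 of the 10 members. Capitals mark matches to TGACG, the half-site of the cAMP response element that CREB binds downstream of PKA, and to CACGTG, the E-box, on either strand.
Akap11, chr14:78536861-78537110, minus strand: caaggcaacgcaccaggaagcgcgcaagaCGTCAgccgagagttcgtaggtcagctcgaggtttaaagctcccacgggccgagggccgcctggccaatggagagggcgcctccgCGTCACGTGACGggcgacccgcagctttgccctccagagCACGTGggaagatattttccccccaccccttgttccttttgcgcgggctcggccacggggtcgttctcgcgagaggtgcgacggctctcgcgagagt
Sphkap, chr1:83408201-83408450, minus strand: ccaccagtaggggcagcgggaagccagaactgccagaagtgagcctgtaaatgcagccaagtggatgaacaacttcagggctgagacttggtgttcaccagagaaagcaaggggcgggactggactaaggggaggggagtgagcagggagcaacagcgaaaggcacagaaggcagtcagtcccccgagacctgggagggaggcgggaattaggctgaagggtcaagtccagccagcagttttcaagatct

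The Akap11 window was 65.6% G and C and held TGACG at 3 places, beginning 221, 136 and 129 bases before the start. It held CACGTG at 133 and 97 bases. The longest capital run contains the CLEAR palindrome, beginning 135 bases before the start and overlapping 2 of the half-sites and 1 of the E-boxes. The CLEAR element is known from lysosomal and autophagy genes, and its palindromic form was searched for after the sequence had been read. It occurred in 0.24% of 32851 RefSeq windows of this length, CACGTG in 6.02%, TGACG in 17.8% and the full element TGACGTCA in 1.55%. Among the members' windows, the CLEAR palindrome and TGACG occurred in that of Akap11, CACGTG also in 1 of Akap7, and TGACGTCA in none. A further Akap11 window, 34.4% G and C, and that of Sphkap held no match. These are letter matches and not measured binding.

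Akap11, the targeted gene, separated the groups completely, with all cKO libraries below all controls. Control replicates 1 to 4 stood at 373, 312, 315 and 291 CPM, and cKO replicates 1 to 4 at 220, 214, 237 and 240 CPM. Control replicate 1 was the highest of all. The means were 323 ± 35.3 and 228 ± 12.7 CPM (SD, n = 4 per group). On the log2 scale the difference was -0.50 (SE 0.069) with an adjusted p of 0.0103 by edgeR's quasi-likelihood test. This is a fall by 29.3%, with a 95% interval from -36.0% to -21.8%. Akap11 had the lowest p of the 16766 genes tested, of which 0.0239% were called at an adjusted p under 0.05 (0.0119% lower and 0.0119% higher). Such a separation of the groups towards lower values was found for 1.39% of all genes tested. Akap11 was still read in every cKO library. Counts cover the whole gene, so reads of exons outside the deleted part and of cells without the recombinase count too. In bulk tissue fewer cells of a type and less RNA per cell cannot be told apart. Leaving out control replicate 2 or cKO replicate 2 ended the call (edgeR adjusted p 0.0616 and 0.104), at folds of -0.52 and -0.47. Without the highest control, replicate 1, the fold was -0.42 (edgeR adjusted p 0.0211), and without both libraries that stand apart it was -0.41.

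**Figure D1:**
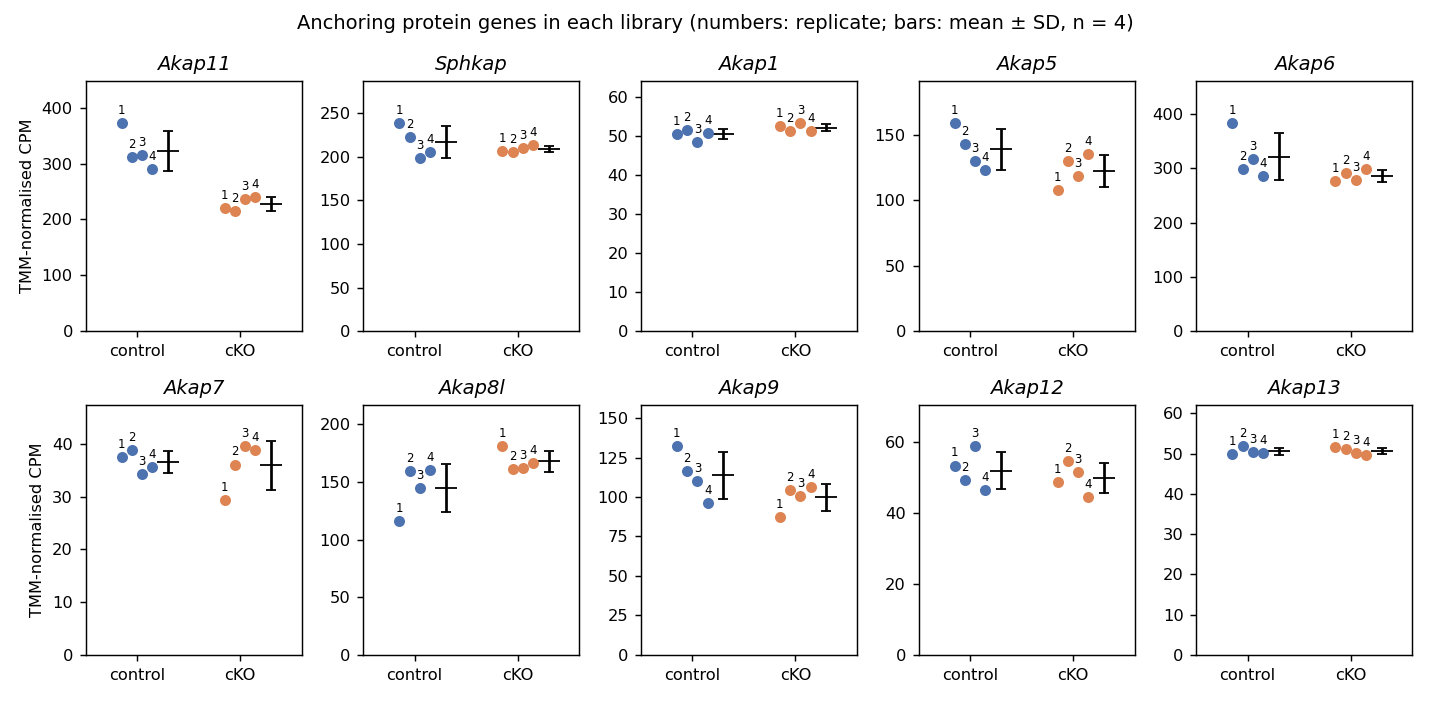
TMM-normalised CPM (vertical axes, from 0, one scale per gene) of each anchoring protein gene in the 4 control and 4 cKO libraries. Points are libraries with their replicate number and bars are mean ± SD; Akap11 and Akap8l are the genes whose groups do not overlap, and control replicate 1 is the highest library for Akap11, Sphkap, Akap5, Akap6 and Akap9.

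To compare levels between genes, CPM was divided by the length of each gene's longest protein-coding transcript. Akap8l, encoding a nuclear relative of AKAP8, was highest in control brain at 69.0 ± 9.91 CPM per kilobase (SD, n = 4). Akap11 followed at 34.5 ± 3.77, ahead of Sphkap at 26.5 ± 2.25, Akap6 at 21.7 ± 2.93 and Akap5 at 20.8 ± 2.37 CPM per kilobase. Akap7 and Akap1 stood at 15.7 ± 0.861 and 13.4 ± 0.343. Akap9, Akap12 and Akap13 closed the order at 8.67 ± 1.12, 8.39 ± 0.862 and 4.01 ± 0.0679. The highest anchor was 17.2 times the lowest. Neighbours whose control ranges overlapped were Sphkap and Akap6, Akap6 and Akap5, and Akap9 and Akap12. Of these, Sphkap was still above Akap6 in all 8 libraries per kilobase of transcript. By CPM alone Akap11 would be first (323) and Akap6 next (322), since their transcripts of 9364 and 14847 bases are far longer than the 2102 bases of Akap8l.

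The length used matters for part of this order. Per kilobase of coding sequence 5 of the 10 genes kept their place, and Akap5, whose coding part is 2256 of 6687 bases, moved from the fifth place to the second (61.5 ± 7.03 CPM per kilobase of coding sequence). Akap11 moved to place 3 (56.8 ± 6.21). Sphkap moved to place 5 (43.5 ± 3.69), below Akap6 at 46.5 ± 6.28 in control brain. Akap8l stayed first and Akap13 last on both scales. Every place was the same with library totals in place of TMM. That scaling changes all genes of a library alike, so it could hardly move a place.

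Per kilobase of length, though not by CPM alone, Akap11 and Sphkap changed places between the groups. Per kilobase of transcript, Akap11 stood at 39.8, 33.3, 33.6 and 31.0 in control replicates 1 to 4, and Sphkap at 29.3, 27.3, 24.3 and 25.2. In cKO replicates 1 to 4, Akap11 stood at 23.5, 22.9, 25.3 and 25.7, and Sphkap at 25.3, 25.2, 25.8 and 26.1. Akap11 was thus above Sphkap in all 4 control libraries and below it in all 4 cKO libraries, by a margin in cKO replicates 3 and 4 of under 1 CPM per kilobase. The same held per kilobase of coding sequence, but this is hardly a second check. The coding lengths (5685 and 4974 bases) stand in nearly the same ratio as the transcript lengths (9364 and 8154 bases). By CPM, without a length, Akap11 stayed above Sphkap in cKO replicates 1 to 4 (220, 214, 237 and 240 against 206, 206, 210 and 213 CPM). The change of places thus rests on the lengths used, which were the same for both groups. Sphkap itself averaged 216 ± 18.3 CPM in control brain and 209 ± 3.34 CPM in cKO brain. It did not pass the test, at -0.05 on the log2 scale (SE 0.061, edgeR adjusted p 0.914), with a 95% interval from -11.5% to 5.51%. Without control replicate 1 the fold was 0.0045.

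**Figure D2:**
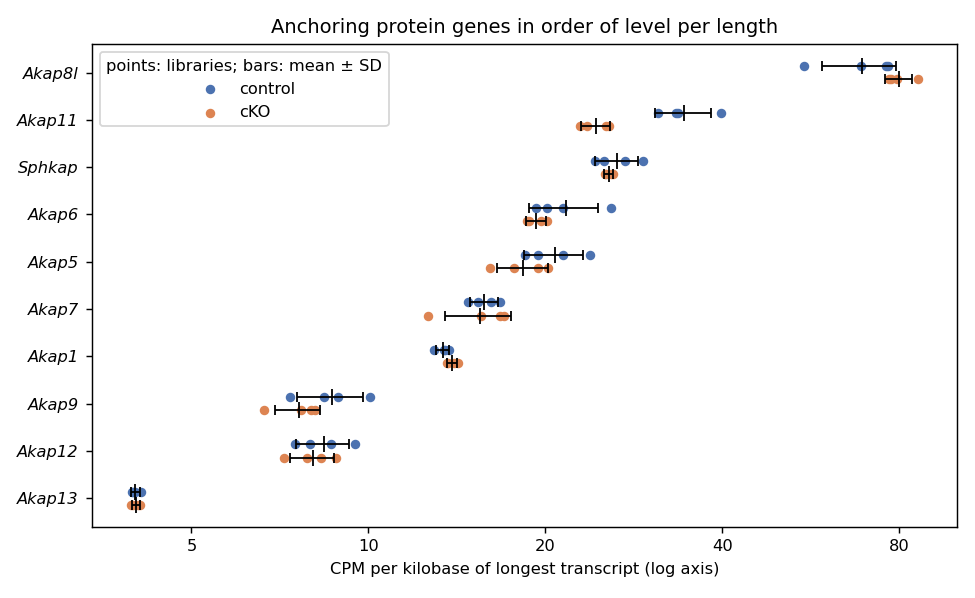
Level of each anchoring protein gene in CPM per kilobase of its longest transcript (horizontal log axis), control and cKO libraries as points with mean ± SD. Akap8l leads at 69.0 in control brain, Akap13 is last at 4.01, and the Akap11 points move from above those of Sphkap in control to below them in cKO libraries.

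Anchors of the plasma membrane and synapse did not pass the test. Akap5 encodes the postsynaptic anchor that brings PKA, calcineurin and protein kinase C to glutamate receptors and calcium channels. It stood at 159, 143, 130 and 123 CPM in control replicates 1 to 4 and at 108, 130, 118 and 135 CPM in cKO replicates 1 to 4. The groups overlapped, with 2 cKO libraries below the lowest control. The log2 fold change was -0.18 (SE 0.080, 95% interval -0.34 to -0.0077), with an unadjusted edgeR p of 0.0413 and an adjusted p of 0.889. It was -0.10 without control replicate 1 and -0.05 without both libraries that stand apart.

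Akap7 encodes small membrane anchors that place PKA beside calcium channels. Its mean was 36.5 CPM in control and 35.9 CPM in cKO libraries, with a log2 fold change near 0 (-0.02, SE 0.087, edgeR adjusted p 0.978). The low cKO library was replicate 1, at 29.3 CPM against 36.1 to 39.5 CPM in the other cKO libraries, and without it the fold was 0.06. Akap12 encodes gravin, a scaffold for PKA and protein kinase C at beta-adrenergic receptors. Its means were 52.0 ± 5.34 and 49.8 ± 4.28 CPM, at a log2 fold change of -0.06 with SE 0.080 (edgeR adjusted p 0.923). The 95% interval ran from -14.6% to 7.75%.

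The anchors of the nucleus and nuclear envelope lay on opposite sides of 0. Akap8l stood at 116, 159, 145 and 161 CPM in control replicates 1 to 4 and at 181, 161, 163 and 167 CPM in cKO replicates 1 to 4. All 4 cKO libraries lay above all controls, but the lowest cKO library and the highest control differed by under 1 CPM. Such a separation towards higher values was found for 1.57% of all genes tested, and in either direction for 2.96%. The log2 fold change was 0.21 (SE 0.082, 95% interval 0.04 to 0.38), with an unadjusted edgeR p of 0.0208 and an adjusted p of 0.889, so Akap8l did not pass. The low control was replicate 1; without it the fold was 0.12, without cKO replicate 1 it was 0.17, and without both 0.08.

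Akap6 encodes the large anchor of the nuclear envelope in neurons and muscle. It stood at 384, 299, 318 and 287 CPM in control replicates 1 to 4 and at 276, 292, 278 and 299 CPM in cKO replicates 1 to 4. The groups overlapped, with 2 cKO libraries below the lowest control. Apart from control replicate 1, controls ran from 287 to 318 CPM and cKO libraries from 276 to 299 CPM. The log2 fold change was -0.17 (SE 0.074, 95% interval -0.33 to -0.01), with an unadjusted edgeR p of 0.0341 and an adjusted p of 0.889. Without control replicate 1 it was -0.07, and without both libraries that stand apart -0.06.

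Among Akap9, Akap1 and Akap13, Akap9 was the one with an interval that excluded 0. Akap9 encodes the giant anchor of the Golgi apparatus and centrosome. It stood at 132, 116, 110 and 96.5 CPM in control replicates 1 to 4 and at 87.3, 105, 101 and 106 CPM in cKO replicates 1 to 4. The groups overlapped, with cKO replicate 1 lowest and control replicate 1 highest. The log2 fold change was -0.19 (SE 0.083, 95% interval -0.36 to -0.01), with an unadjusted edgeR p of 0.0370 and an adjusted p of 0.889. It was -0.10 without control replicate 1 and -0.05 without both libraries that stand apart. Akap9 shares 166 exonic bases with Cyp51 on the opposite strand, and the counting's strand setting is not given in the sources used here.

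Akap1 and Akap13 varied little between libraries. Akap1 encodes the anchor of the outer mitochondrial membrane and averaged 50.3 ± 1.29 CPM (control) and 52.1 ± 1.01 CPM (cKO). Its log2 fold change was 0.05 (SE 0.061, edgeR adjusted p 0.915), with a 95% interval from -5.27% to 13.1%. Akap13, a further anchor, averaged 50.6 ± 0.855 and 50.6 ± 0.835 CPM. On the log2 scale the difference was 0.0025 (SE 0.061, edgeR adjusted p 0.996), with a 95% interval from -8.29% to 9.41%. The spread of Akap13 among control libraries was 1.69% of its mean, against 14.4% for Akap8l and 13.5% for Akap6.

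None of the 9 other anchors passed edgeR's test over all genes, in either direction. Of all genes tested 0.0239% passed, so a count of 0 says little about the anchors as a group. At an unadjusted p under 0.05 there were 4 of 9, 1 higher (Akap8l) and 3 lower (Akap5, Akap6, Akap9), where 4.78% of all genes tested reached that p, 2.87% higher and 1.91% lower. With Akap11 counted, 5 of the 10 members reached it. That count was 1, Akap11 itself, without control replicate 1 and without cKO replicate 1, and 2 without cKO replicate 3. It was 3 without control replicate 2 and stayed at 5 without control replicate 3 or 4 or cKO replicate 2 or 4. Without control replicate 4 the folds of Akap5, Akap6, Akap9 and Akap8l were -0.23, -0.23, -0.26 and 0.26, further from 0 than with all libraries. DESeq2 and limma voom also called no anchor other than Akap11. The median log2 fold change of the 9 was -0.05, with 3 positive and 6 negative, against 0.0034 over all genes tested. In the main fit, the single-gene 95% intervals of the 8 anchors other than Akap8l ended at 13.1% higher (Akap1) or below. That of Akap8l ended at 30.3% higher. These ends are no limit on a rise and move with the fit. Without both libraries that stand apart, for example, Akap7 was at 0.077 (SE 0.076), against -0.02 in the main fit. Whether anchors vary with Akap11 from library to library was not tested, since the Akap11 levels form 2 separate groups of 4. Likeness to the Akap11 profile is only described further below.

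Summed per kilobase of transcript, the 9 other anchors stood at 186, 196, 183 and 187 in control replicates 1 to 4 and at 191, 191, 191 and 195 in cKO replicates 1 to 4. The cKO values all lay within the control range. Summed by CPM without a length, the 9 went the other way, at 1125 ± 71.4 in control and 1074 ± 27.6 CPM in cKO brain. By that sum cKO replicate 1, at 1040 CPM, lay below the lowest control at 1055 CPM. Akap8l made up 36.7% ± 4.92 of the sum per kilobase in control and 41.6% ± 2.29 in cKO brain (SD, n = 4). Without both libraries that stand apart the means were 39.0% and 40.4%, and the ranges overlapped. Akap11 fell from 34.5 ± 3.77 to 24.4 ± 1.35 CPM per kilobase. Its share of the 10 anchors together was 15.5% ± 1.53 in control and 11.3% ± 0.499 in cKO brain (SD, n = 4).

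**Figure D3:**
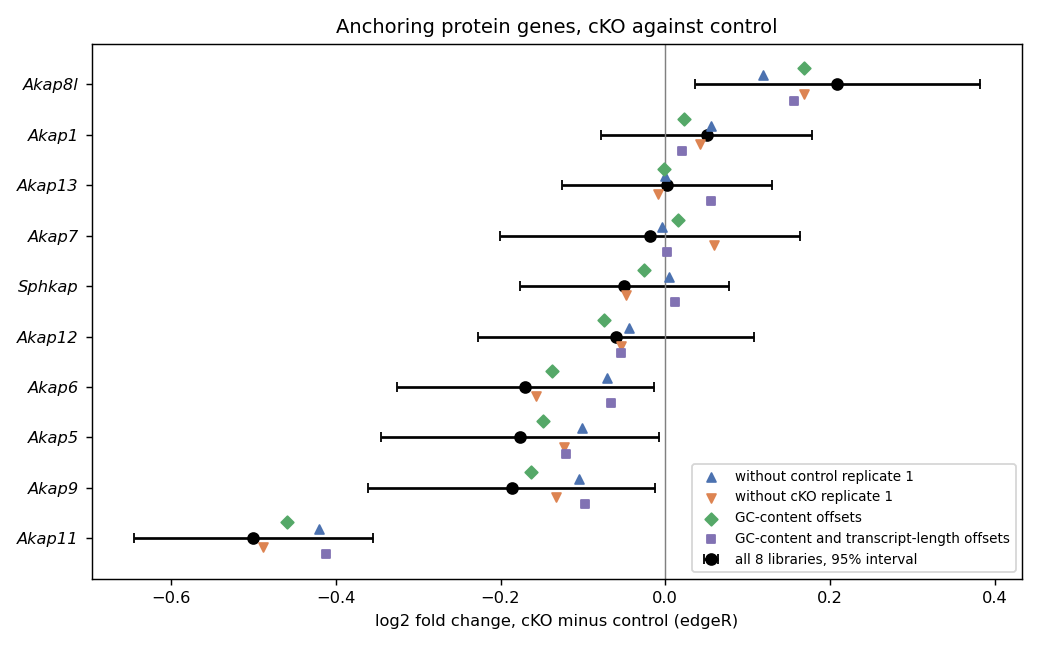
Log2 fold change, cKO minus control, of each anchoring protein gene (black points, 95% intervals) with the values without control replicate 1, without cKO replicate 1 and with offsets for GC content or for GC content and transcript length. All of Akap11, Akap5, Akap6, Akap9 and Akap8l move towards 0 in each of these fits, Akap11 from -0.50 to no nearer than -0.41. For Akap5, Akap6, Akap9 and Akap8l, control replicate 1 and cKO replicate 1 are the outermost libraries, so smaller folds without either follow from the choice. Without control replicate 4, not shown, all of the named genes move away from 0 (Akap11 to -0.55).

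Several members deviated together in control replicate 1 and cKO replicate 1. Relative to the control mean, control replicate 1 was at 0.26 for Akap6, 0.22 for Akap9 and for Akap11, 0.20 for Akap5 and 0.15 for Sphkap on the log2 scale, and at -0.31 for Akap8l, the shortest member. Length did not order all members: Akap13, at 12597 bases longer than Akap11, was at -0.02 there, and Akap12 was at 0.04. Of the 9 other anchors, 4 had their highest value of all 8 libraries in control replicate 1 and 4 had their lowest in cKO replicate 1. Over 10331 genes, the deviation of control replicate 1 from its group correlated with transcript length (Spearman correlation 0.333 across genes, which are not independent replicates). That of cKO replicate 1 correlated with GC content (Spearman correlation 0.642), and those of cKO replicates 3 and 4 in the other direction (-0.514 and -0.626). Deviations from a group's own mean cancel out for each gene. The trends of cKO replicates 3 and 4 may thus follow from that of cKO replicate 1, and cannot show a shift of their own. With offsets for GC content per library the folds were -0.15 for Akap5, -0.14 for Akap6, -0.16 for Akap9 and 0.17 for Akap8l. With offsets for GC content and transcript length, a fit added after these values were seen, they were -0.12, -0.07, -0.10 and 0.16. Akap11 was at -0.41 in that fit, with an edgeR adjusted p of 6e-05.

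**Figure D4:**
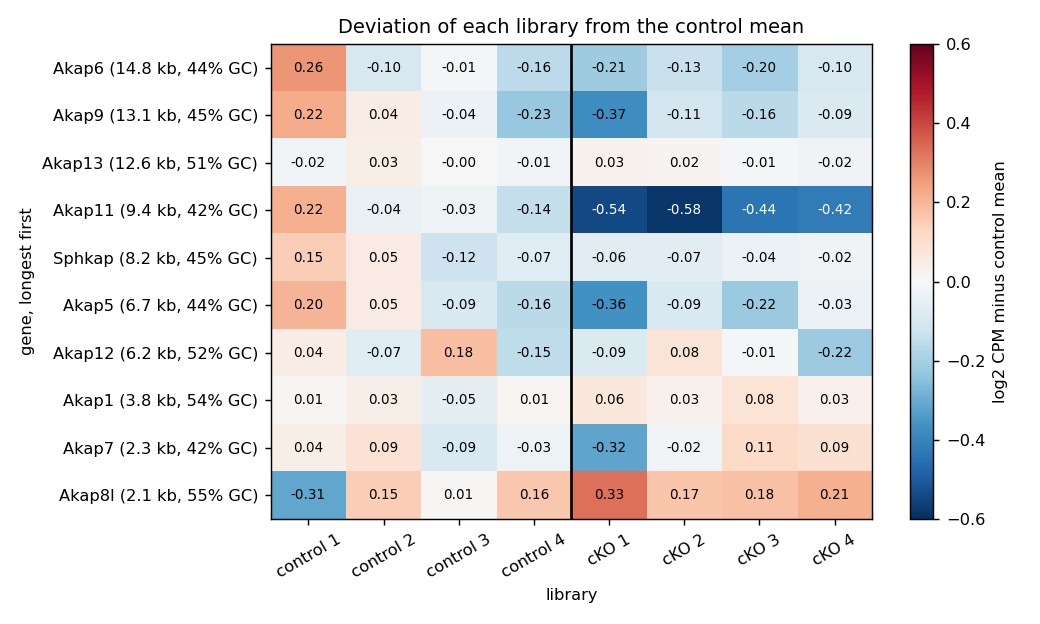
Log2 CPM of each library minus the control mean (colour and printed value) for the 10 anchoring protein genes, ordered from the longest to the shortest transcript, with control libraries left of the line. Control replicate 1 is high for Akap6, Akap9, Akap11 and Akap5, near 0 for the long gene Akap13 and low for Akap8l, and Akap11 is the one gene below -0.40 in every cKO library.

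Further anchoring protein genes gave no calls. Of 25 others listed, 19 passed the filter on low counts. Of these 19, 0 passed edgeR's test over all genes (0.0239% of all genes tested did), nor did any by DESeq2 or limma voom. By unadjusted p under 0.05 there were 2, both lower, where 1.91% of all genes tested were lower at that p. Without both libraries that stand apart neither reached it (Map2 -0.06, Nbea -0.07). Map2, encoding the dendritic microtubule protein that binds type II PKA, was at 1089 ± 128 and 957 ± 68.2 CPM (log2 fold change -0.19, SE 0.074). Nbea, encoding neurobeachin, a trafficking protein of synapses, was at 308 ± 37.3 and 277 ± 5.17 CPM (-0.15, SE 0.069), with all cKO libraries below all controls, a separation found for 1.39% of all genes tested. Akap8, the nuclear relative of Akap8l, had 0.15 (SE 0.086) and Rab32, a small GTPase of mitochondria and lysosome-related organelles, 0.37 (SE 0.23). The median of the 19 was -0.02. Akap3, Akap4, Akap14 and Ropn1l, known from sperm and cilia, held 0 to 55 reads over all 8 libraries. Akap2, Palm2 and Pakap are separate entries of 1 locus whose reads may be split between them, and they held 7, 1996 and 1 reads.

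The kinase held by these anchors is described by 9 subunit and inhibitor genes. Of these, 0 passed edgeR's test (over all genes tested 0.0239%). At an unadjusted p under 0.05 there was 1 (over all genes tested 4.78%, with 1.91% lower). Prkaca, Prkacb, Prkar1b, Prkar2a, Prkar2b, Pkia, Pkib and Pkig had log2 fold changes between -0.14 (Pkib) and 0.13 (Pkig), and Prkar1a, encoding a type I regulatory subunit, had -0.16 (SE 0.055, edgeR adjusted p 0.889). Its cKO libraries all lay below all controls (1.39% of all genes tested). Without both libraries that stand apart its fold was -0.11 (SE 0.041, unadjusted edgeR p 0.0181), and it was not called. Of 32 genes for enzymes and targets held on the anchors, 0 passed (over all genes tested 0.0239%). By edgeR 0 reached an unadjusted p under 0.05 (over all genes tested 4.78%), and their median was -0.05. DESeq2 and limma voom called none of these either. Those with the lowest p were Prkca (-0.13, SE 0.065), Adcy8 (0.14, SE 0.079), Cdk5rap2 (-0.15, SE 0.082) and Mapk7 (0.18, SE 0.11). Their products are protein kinase C alpha, a calcium-stimulated adenylyl cyclase, a centrosome protein bound by AKAP9, and the kinase ERK5.

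None of the 6 tested genes nearest Akap11 on chromosome 14 passed the test, which 0.0239% of all genes tested passed. On 1 side the nearest genes tested were the low-level Fam216b (log2 fold change 0.02, SE 0.33), Epsti1 (0.08, SE 0.37) and Dnajc15 (-0.02, SE 0.060). On the other they were Dgkh, encoding a diacylglycerol kinase (-0.16, SE 0.087), Vwa8 (-0.03, SE 0.063) and Rgcc (0.04, SE 0.11). Their edgeR adjusted p was at least 0.889, and the control means of Fam216b and Epsti1 were 1.22 and 0.808 CPM.

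Genes with a profile over the 8 libraries most like that of Akap11 were found by the root mean square difference of centred log2 CPM, among 10368 genes with a mean of at least 10 CPM. They were Nxph1 (0.101), St18 (0.118), Trps1 (0.123), Syn3 (0.127) and Ppp1r3e (0.132), where the median gene stood at 0.285. Nxph1, a ligand of neurexins, fell (log2 fold change -0.41, edgeR adjusted p 0.0333), and the other 4 had -0.28, -0.32, -0.32 and -0.34, each with an edgeR adjusted p of 0.889. The genes most like Sphkap were Ctr9, Afdn, Tshz3, Chn1 and Rflnb (0.0268 to 0.0308), whose folds lay between -0.07 and -0.01. Both sets were picked by likeness over these same 8 libraries, so folds near those of Akap11 and of Sphkap follow from the choice. No other anchor was in either set.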

How the data were processed

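Each library has 1 file of raw read counts, which the authors deposited without normalization. HISAT2 and the mouse build GRCm39 are named, per the submitters' processing notes; the counter, its annotation and its strand setting were not stated. The 5 entries that name no gene (between them 20.3% to 36.2% of a library's listed reads) stayed out of library sizes and tests. Groups and replicate numbers came from the titles. Symbols, lengths, GC content and gene order came from GENCODE M21 (GRCm38), which matched 51880 of 57186 genes. Counts were filtered with filterByExpr, scaled by TMM and compared with edgeR 4.0.16 (robust quasi-likelihood test with group as its single term, R 4.3.3), with Benjamini-Hochberg adjustment over 16766 genes at a threshold of 0.05. Tested on simulated data for this comparison (16552 genes), the fit recovered 91% of 100 genes changed by 0.5 on the log2 scale and 100% of 100 changed by 1, with 16 false calls. The changed genes all had a mean of at least 10 CPM. Genes were simulated independently, without the shifts of libraries with GC content and length seen here, so this recovery need not hold for these data. Alternatives used DESeq2 1.42.0, limma 3.58.1, sva 3.50.0, other scalings and filters, GC offsets and each library left out.

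The members and gene lists were chosen with earlier results of these data known. Genes named are the 10 members, up to 4 genes of lowest p per list of further anchors and of enzymes and targets held on them, all PKA genes, the 3 tested genes nearest Akap11 on each side, and the 5 genes most like Akap11 and Sphkap. Aqp4, Cbln3 and Gabra6, and the anchor genes given by read number, were chosen after their values were seen.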

Additional observations from a re-analysis of the deposited data

How the results depend on the processing

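Akap11 was lower in cKO brain in all 20 alternatives and kept its call in 17. It lost the call with 1 surrogate variable (-0.48, edgeR adjusted p 0.0535) and in 2 of the 8 fits that leave out 1 library, over which it ran from -0.55 to -0.42. The number of members called was accordingly 0 with 1 surrogate variable, and 0 to 1 with 1 library left out. Genes called numbered 7 with no low-count filter, 2 with limma voom, 2 without both libraries that stand apart, 1 with 1 surrogate variable and 0 to 3 with 1 library left out. Members at an unadjusted p under 0.05 numbered 3 with a mean of at least 10 CPM, with limma voom and with GC-content offsets, and 2 with GC-content and transcript-length offsets. They numbered 1 with 1 surrogate variable or without both libraries, and 1 to 5 with 1 library left out.

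With the replicate number as a block, Akap11 kept its call (-0.50, edgeR adjusted p 0.0322), genes called numbered 2 and members at an unadjusted p under 0.05 numbered 3. The numbers did not pair the libraries: deviations of same-numbered libraries correlated between -0.05 and 0.07, and 1 of 4 controls correlated best with its own number.

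The order by level kept 5 places with coding length and 8 to 10 with 1 control left out. The median of enzymes and targets was -0.026 with 1 surrogate variable, -0.0072 without both libraries and -0.063 to -0.021 with 1 library left out. That of PKA genes was -0.0094 without both and -0.057 to -0.011 with 1 left out.

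Members near 0 changed sign; the cause was not tested. Akap13 stood at -0.00053 with DESeq2 size factors, -0.00096 with no filter, -0.00092 with DESeq2, -0.0016 with GC-content offsets, -0.0019 with the block and GC-content offsets, -0.0060 with 1 surrogate variable and -0.0098 without both libraries. Leaving out 1 library gave -0.0092 to 0.012. Akap7 stood at 0.016 with GC-content offsets, 0.015 with the block added, 0.0026 with transcript length added, 0.063 with 1 surrogate variable, 0.077 without both libraries, and -0.071 to 0.059 with 1 library left out. Sphkap stood at 0.012 with GC-content and transcript-length offsets, 0.0085 without both, and -0.095 to 0.0045 with 1 left out. Akap12 ran from -0.11 to 4.4e-05 with 1 left out. Akap1, Akap5, Akap6, Akap8l and Akap9 kept their sign in all 20 alternatives and passed in none.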
